A study of Homo sapiens with 6 samples.

Results

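The GPRC5 genes GPRC5A, GPRC5B, GPRC5C and GPRC5D encode a small family of orphan receptors, and were examined here in SW480 cells depleted of the transcription factor ZEB1. Their members were taken by gene name, 4 of the 32029 genes listed in the files, and the family was chosen because the fall of GPRC5B in this comparison is among the largest. The values of GPRC5B are therefore a description of what selected it and carry no test, whereas GPRC5A, GPRC5C and GPRC5D entered by family name. SW480 is an established human colorectal adenocarcinoma line. All cultures were of this 1 line, 3 of them given a control siRNA by transfection (siControl) and 3 an siRNA against ZEB1 (siZEB1), and RNA was taken after 48 h in both groups. The study's methods call the 3 samples biological replicates, and the cultures were bulk samples, in which fewer cells expressing a gene and less RNA per cell cannot be told apart.

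GPRC5 proteins are placed with the class C G protein-coupled receptors by sequence but have a short extracellular end in place of the large ligand-binding domain of that class, and no ligand is firmly established for them. The first of them was found as a gene induced by retinoic acid, the vitamin A derivative that acts through nuclear receptors of the RAR and RXR families. GPRC5A is best known from lung and other epithelia, GPRC5B from brain and fat, GPRC5C from kidney, and GPRC5D from plasma cells, where it serves as a target in myeloma therapy.

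The read counts per culture summed to between 19040636 and 22357633. Levels are given as CPM, the usual depth-scaled read count, after TMM scaling (a correction for library composition), and 1 CPM corresponded to 18.9 to 22.4 reads. A count of 3 reads, taken as the floor, corresponded to 0.134 to 0.159 CPM. This floor covers counting error only. Changes are log2 ratios of siZEB1 to siControl (log2 fold changes, with their standard errors, SE) from edgeR's quasi-likelihood test, two-sided, adjusted by the Benjamini-Hochberg method over the 14996 genes that passed its filter on low counts. A gene was called at an adjusted p under 0.05. The target itself, ZEB1, had 1247, 1276 and 908 reads in control and 136, 132 and 162 in depleted cultures, and its level fell from 54.2 ± 6.24 to 7.51 ± 0.843 CPM (SD, n = 3), 13.8% of control. Summed over 9 epithelial markers, the level was 4815 to 5438 CPM in control and 5330 to 6002 CPM in depleted cultures, with KRT8 abundant and the intestinal markers KRT20, CDH17 and GPA33 near 0. These markers did not move together. EPCAM, an epithelial adhesion gene, averaged 54.7 CPM in control and 454 CPM in depleted cultures, the keratin gene KRT19 72.3 and 223 CPM, and VIL1, a microvillus gene, 4.08 and 20.7 CPM, whereas CDX2, an intestinal transcription factor gene, averaged 102.5 and 41.8 CPM. The part of these shifts in the changes below was not tested. The 3 leukocyte markers summed to at most 0.467 CPM in any culture, the 2 endothelial ones to at most 2.72 CPM and the 2 fibroblast ones to at most 10.7 CPM. The 4 plasma cell markers summed to 42.9 to 49.8 CPM in control and 56.4 to 66.2 CPM in depleted cultures, and of these only SDC1, which epithelial cells also express, passed the filter.

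GPRC5B was a low-abundance transcript that nearly disappeared in the ZEB1-depleted cultures. GPRC5B (ENSG00000167191) lies on the minus strand of chromosome 16 from 19856691 to 19886167 in GENCODE 29 on GRCh38, and encodes a receptor found in lipid rafts. It had 43, 55 and 36 reads in control cultures, against 3, 4 and 6 in depleted ones. Every control culture lay far above every depleted one, and the groups did not overlap. Its level was 2.12 ± 0.305 CPM in control and 0.227 ± 0.0790 CPM in depleted cultures (SD, n = 3), 10.7% of control. The log2 fold change was -3.19 (SE 0.35), which ranked 4 from the lowest among the 14996 genes tested. It was the lowest of the 13197 genes with a mean level of at least 1 CPM, a limit that GPRC5B passes through its control level. Over the pooled reads, 134 against 13, the ratio after scaling was 0.107 with an exact 95% interval of 0.0553 to 0.189 that covers counting error only. The interval takes no account of the choice of GPRC5B by this fall and is no test. With 3 to 6 reads per depleted culture, the remaining level stands at or just above the floor.

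**Figure D1:**
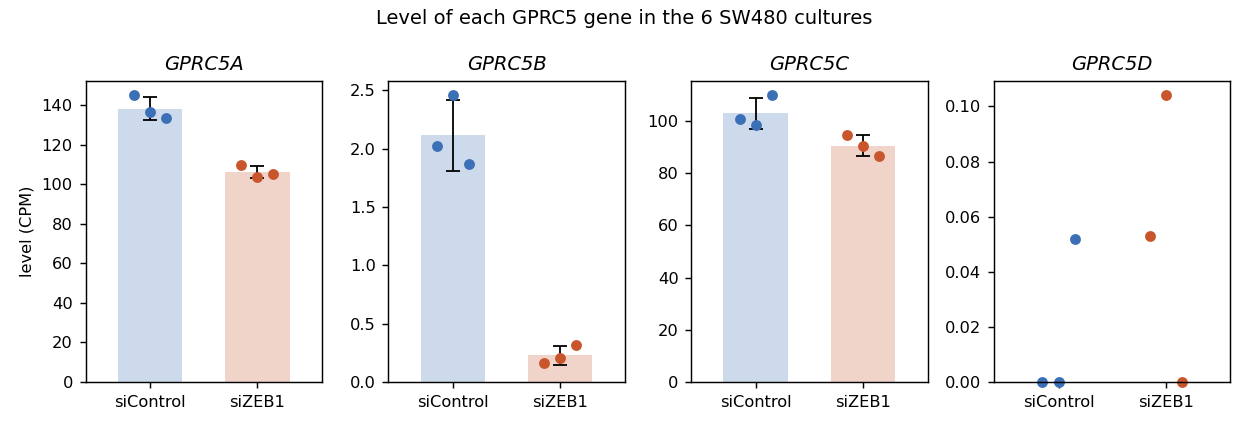
Level of each GPRC5 gene in CPM (vertical axis, a separate linear scale for each gene) by group, where points are the 3 cultures of a group. Bars and error bars are the mean and SD, except for GPRC5D, shown as points because it has at most 2 reads per culture. With siZEB1, GPRC5B drops from 2.12 to 0.227 CPM, GPRC5A from 138 to 106 CPM and GPRC5C from 103 to 90.6 CPM.

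GPRC5B shares exonic bases with another gene. Its last exon overlaps an exon of IQCK on the opposite strand over 1777 bases, 26.7% of its exonic bases, and whether the counting used the strand is not given in the sources used here. Where strand was not used, reads in that stretch cannot be assigned to either gene, and how many of the counted reads fall there was not measured. IQCK, which encodes a protein with a calmodulin-binding motif, had 39, 40 and 32 reads in control and 39, 41 and 35 in depleted cultures. These groups overlapped, and the log2 fold change of IQCK was 0.19 (adjusted p = 0.518, edgeR).

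**Figure D2:**
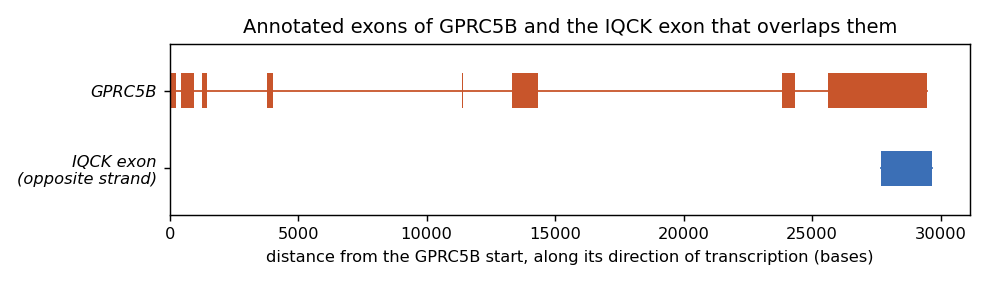
Exons of GPRC5B (upper track) and the overlapping exon of IQCK on the opposite strand (lower track), drawn to scale against the distance in bases from the GPRC5B start along its direction of transcription. Boxes are exons of all annotated transcripts in GENCODE 29, and the IQCK exon covers 1777 bases of the GPRC5B last exon.

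The promoter of GPRC5B is printed because ZEB1 binds DNA at E-boxes, and retinoid receptors at half-sites of the form AGGTCA. The RefSeq sequence spans chr16:19885585-19885884 on GRCh38.p14, minus strand, from 250 bases before to 50 bases after the RefSeq start. The window lies wholly inside the gene span given above, whose start on the minus strand is 19886167. The RefSeq start is therefore a different, downstream one. Bases upstream of the start at 19886167 are outside the window and were not searched for these motifs. Capitals mark AGGTCA and the general E-box CANNTG.
GPRC5B promoter: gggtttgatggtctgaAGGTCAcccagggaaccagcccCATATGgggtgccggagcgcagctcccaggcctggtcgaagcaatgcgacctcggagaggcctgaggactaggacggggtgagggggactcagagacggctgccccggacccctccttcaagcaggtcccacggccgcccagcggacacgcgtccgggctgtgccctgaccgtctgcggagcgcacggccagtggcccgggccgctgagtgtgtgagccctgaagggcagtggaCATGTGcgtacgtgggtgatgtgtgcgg
It held 1 AGGTCA and 2 CANNTG, read on both strands, and no CAGGTG, the E-box form best known for ZEB1, which is itself one of the forms of CANNTG. Of 35116 promoters of 300 bases, 13.8% held AGGTCA or its complement, 68.7% held CANNTG and 20.6% held CAGGTG or its complement. GPRC5D, the other member with a RefSeq entry in the table used, had 1 CANNTG and no match to AGGTCA or CAGGTG. These matches describe letters in the window, and binding was not tested.

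GPRC5A was the most abundant member by reads and its level fell. GPRC5A (ENSG00000013588), a receptor gene studied as a growth suppressor in lung epithelium, lies on chromosome 12 from 12890782 to 12917937, plus strand. It had 3081, 3057 and 2569 reads in control and 2067, 1994 and 2012 in depleted cultures. Scaled, these were 144.9, 136.5 and 133.3 CPM against 109.5, 103.7 and 105.1 CPM. Every depleted culture lay below every control culture. The mean went from 138 ± 6.0 to 106 ± 3.02 CPM (SD, n = 3), 76.8% of control. Its log2 fold change was -0.38 (SE 0.062, 95% interval -0.51 to -0.25, adjusted p = 0.000107, edgeR). It stayed below an adjusted p of 0.05 under each of the 12 alternatives run for it, which leave out the fold threshold. The microRNA gene MIR614 shares 90 of its exonic bases, 1.07%.

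GPRC5C, the member known from kidney, had a smaller estimated fall, and its call was not stable. GPRC5C (ENSG00000170412) lies on chromosome 17 from 74424851 to 74451653, plus strand. It had 2142, 2211 and 2119 reads in control and 1789, 1743 and 1655 in depleted cultures. In CPM these were 100.7, 98.7 and 109.9 against 94.8, 90.6 and 86.5, so the groups did not overlap but lay close to each other at their nearest cultures. The mean was 103 ± 5.97 with siControl and 90.6 ± 4.15 CPM with siZEB1 (SD, n = 3), 87.9% of control. Its log2 fold change was -0.19 (SE 0.067, 95% interval -0.33 to -0.044, adjusted p = 0.0356, edgeR). Leaving out siControl replicate 3 gave an adjusted p of 0.101, and leaving out siZEB1 replicate 1, 2 or 3 gave 0.0541, 0.0923 or 0.120, each past the threshold.

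GPRC5D, the plasma cell member, was at or under the floor in every culture. GPRC5D (ENSG00000111291) lies on chromosome 12 from 12940775 to 12952147, minus strand. It had 0, 0 and 1 reads in control and 1, 2 and 0 in depleted cultures, and did not pass the filter. The plasma cell gene TNFRSF17 was at a like depth, with 0, 0 and 1 against 1, 3 and 0 reads. No change of GPRC5D was detectable at this depth, and no fold is given.

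Of the 4 members, 3 passed the filter, and GPRC5A and GPRC5C, which entered by family name, were called lower. Of all genes tested, 40.2% were called, 19% higher and 21.2% lower, and for 49.5% the siControl and siZEB1 cultures did not overlap, so that calls and separated groups among the members are common in this comparison. The fall of GPRC5B, which selected the family, was larger than those of GPRC5A and GPRC5C, whose 95% intervals overlapped each other. The log2 fold change was -3.19 for GPRC5B, -0.38 for GPRC5A and -0.19 for GPRC5C. Counted from the lowest log2 fold change among the 13197 genes with a mean of at least 1 CPM, GPRC5A ranked 2263 and GPRC5C 4031.

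**Figure D3:**
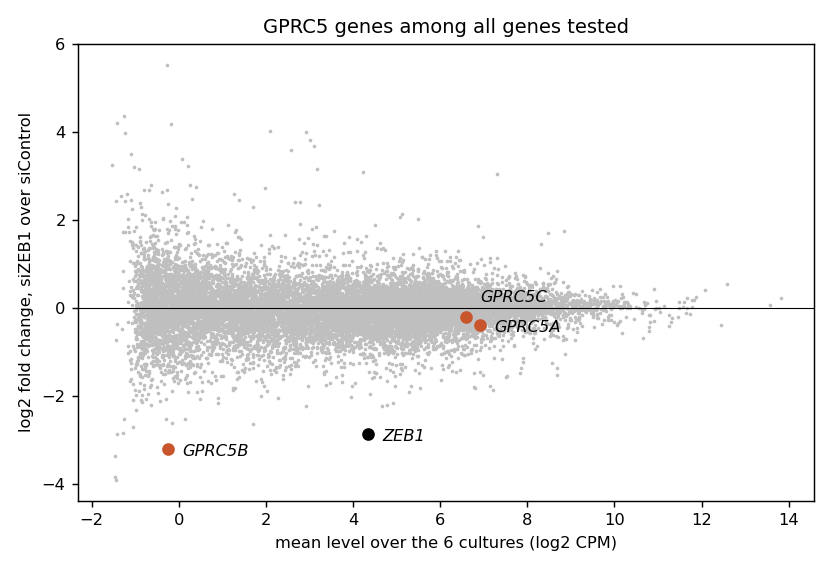
Log2 fold change of siZEB1 over siControl (vertical axis) against mean level in log2 CPM (horizontal axis) for the 14996 genes tested, with 3 GPRC5 members marked. GPRC5B lies at -3.19 among genes of low level, and GPRC5A and GPRC5C lie at -0.38 and -0.19 among abundant genes.

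Levels of different genes were compared per kb of length. Over all annotated exonic bases (8440 for GPRC5A, 6667 for GPRC5B, 8005 for GPRC5C and 1124 for GPRC5D), the control levels were 16.4 ± 0.711 CPM per kb for GPRC5A, 12.9 ± 0.745 for GPRC5C and 0.317 ± 0.0458 for GPRC5B. With siZEB1 they were 12.6 ± 0.357, 11.3 ± 0.518 and 0.0340 ± 0.0118 CPM per kb (SD, n = 3). The order of GPRC5A and GPRC5C depends on the length used. Per kb of 1 coding transcript, 7362 bases for GPRC5A and 2988 bases for GPRC5C, the control levels were 18.8 ± 0.815 and 34.5 ± 2.0 CPM per kb, which puts GPRC5C above GPRC5A. On both lengths GPRC5B stood far below both of these genes in every culture. GPRC5D could not be placed apart from GPRC5B in the depleted cultures, where both were near the floor.

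On the exonic-length scale, GPRC5B made up 0.938% to 1.28% of the summed family level in the control cultures and 0.0958% to 0.202% in the depleted ones. The sum itself was 28.9 to 30.1 CPM per kb with siControl and 23.3 to 24.9 CPM per kb with siZEB1. GPRC5A and GPRC5C together carried nearly all of it in both groups. The ratio of GPRC5A to GPRC5C per length was 1.36, 1.31 and 1.15 with siControl and 1.10, 1.09 and 1.15 with siZEB1, so the groups overlapped. The log2 ratio was 0.35 ± 0.13 against 0.15 ± 0.047 (SD, n = 3), a difference of -0.20 that an exact two-sided permutation test did not separate from 0 (p = 0.2, the smallest possible being 0.1).

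Genes of retinoid signaling, the pathway from which the family took its early name, included called falls and called rises. Of 28 listed names 23 were in the files and 14 were tested, of which 6 were called lower, 2 higher and 6 were not called, 57.1% called in all beside 40.2% of all genes tested (21.2% lower, 19% higher). With 14 genes, no difference from that background is drawn. Their median log2 fold change was -0.15, beside -0.0055 over all genes tested. CYP26B1, an enzyme that breaks down retinoic acid, fell from 5.33 to 2.76 CPM (log2 fold change -0.95, adjusted p = 0.000193, edgeR). RARG, a retinoic acid receptor, had 465, 494 and 475 reads in control and 231, 275 and 236 in depleted cultures (log2 fold change -0.82, adjusted p = 3.51e-06, edgeR). RXRB, a partner receptor of the RARs, rose from 18.6 to 31.5 CPM (log2 fold change 0.76, adjusted p = 1.6e-06, edgeR). The receptors thus moved in both directions, and RARA and RXRA were not called, at log2 fold changes of 0.15 and -0.15.

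The smaller called falls were RAI14, an actin-binding protein gene, at -0.41, STRA6, the retinol uptake receptor, at -0.32, CRABP2, a retinoic acid carrier, at -0.22 and TGM2, a retinoic acid-inducible crosslinking enzyme, at -0.16. RDH11, a retinal reductase, rose by 0.19. The call of TGM2 was lost when siControl replicate 2 or siZEB1 replicate 2 or 3 was left out (adjusted p = 0.103, 0.0956 and 0.0683, edgeR). That of RDH11 was lost without siControl replicate 2 or 3 or siZEB1 replicate 1 or 2 (adjusted p = 0.0609, 0.0634, 0.0944 and 0.0595, edgeR). RDH10, DHRS3 and RARRES2 were not called, at log2 fold changes of -0.093, 0.18 and -0.25. Below the filter, CYP26A1, a second retinoic acid-degrading enzyme, had 0, 0 and 4 reads in control and 12, 14 and 9 in depleted cultures. ALDH1A3, which makes retinoic acid, had 10, 11 and 8 reads against 1, 3 and 3, and RARB had 3, 2 and 0 against 1, 0 and 2. Of the 9 retinoid genes below the filter, CYP26A1 and ALDH1A3 had reads that did not overlap between groups, in opposite directions. Those of RARB and of the others did overlap. The share of genes with separated groups, 49.5%, covers tested genes only, so no background was computed for genes this low.

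The other class C receptors were mostly too low to test. Of 13 listed genes in the files 3 were tested, and 10 were below the filter. Of the 3 tested, 1 was called, 33.3% beside 40.2% of all genes tested. GABBR1, a subunit of the metabotropic GABA receptor, had 232, 246 and 282 reads in control and 128, 131 and 165 in depleted cultures, and fell from 12.2 ± 2.13 to 7.40 ± 1.05 CPM (SD, n = 3; log2 fold change -0.71, adjusted p = 0.000537, edgeR). The taste receptor subunit TAS1R3 and the orphan receptor GPR158 were not called, at -0.66 and 0.30. The median of the 3 was -0.66, beside -0.0055 over all genes tested, and with 3 genes no difference from that background is drawn.

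Of the genes for proteins that GPRC5A or GPRC5B are known to act with, or that are known to act on them, 13 were tested, 3 were called higher, 4 lower and 6 were not called (53.8% called, beside 40.2% of all genes, and a median log2 fold change of 0.0070). EGFR, the receptor tyrosine kinase that GPRC5A is reported to bind, had 2525, 2647 and 1901 reads in control and 1090, 988 and 1210 in depleted cultures. Its groups did not overlap, and its level fell from 112 to 57.4 CPM (log2 fold change -0.96, adjusted p = 1.64e-07, edgeR). CAV1, which encodes the coat protein of caveolae, rose from 5.26 to 9.27 CPM (log2 fold change 0.82, adjusted p = 5.41e-05, edgeR). SGMS2, a sphingomyelin synthase, was lower at -0.50 and the kinase gene SRC at -0.32. NFKB1 and FLOT1, for an NF-kappaB subunit and a lipid raft protein, were higher at 0.25 each. RELA, for another NF-kappaB subunit, was called at -0.17. Its call was lost without siControl replicate 2 or 3 (adjusted p = 0.0747 and 0.0723, edgeR) or siZEB1 replicate 1, 2 or 3 (0.0695, 0.0769 and 0.122). That of FLOT1 was lost without siControl replicate 1 or siZEB1 replicate 1 or 2 (adjusted p = 0.0522, 0.0507 and 0.0565, edgeR). FYN, a kinase linked to GPRC5B, was not called, at 0.074, and neither were STAT3, SGMS1, NFKBIA, HIF1A and YAP1, between -0.065 and 0.071.

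**Figure D4:**
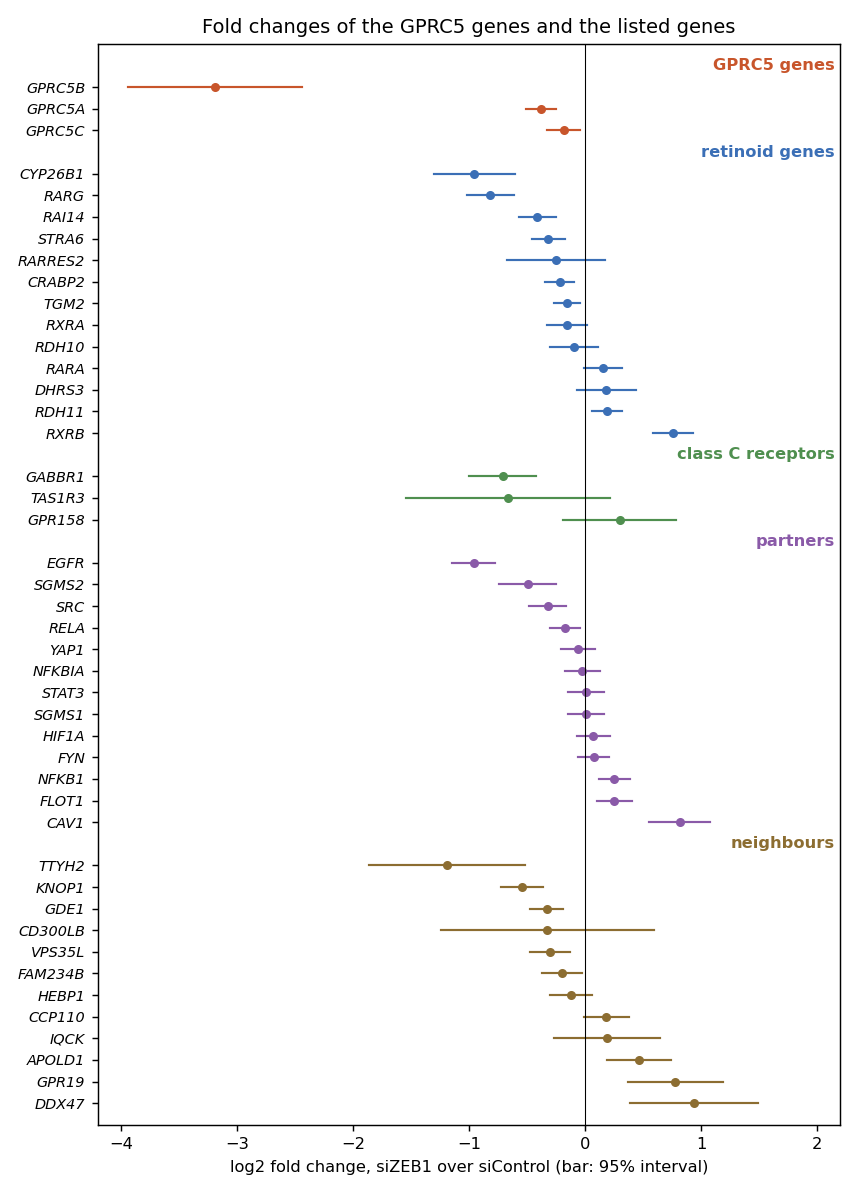
Log2 fold change of siZEB1 over siControl (horizontal axis) for the GPRC5 members tested and the tested genes of the lists that are named, with points for the estimate and lines for the 95% interval of the edgeR fit, not adjusted for the number of genes. GPRC5B at -3.19 lies to the left of the listed genes shown, and EGFR, CYP26B1 and RARG are among those on the side of lower levels. The line of GPRC5B, which was chosen by its fall, is a description only.

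Genes beside the members on their chromosomes were called in both directions, as were genes in general. Of 17 neighboring genes in the files 12 were tested, 3 were called higher, 4 lower and 5 were not called (58.3% called, beside 40.2% of all genes, and a median log2 fold change of -0.16). Beside GPRC5A and GPRC5D on chromosome 12, DDX47, an RNA helicase gene, rose by 0.94, GPR19, another orphan receptor gene, by 0.78 and APOLD1 by 0.47. The rise of DDX47 rests on few reads, 17, 31 and 24 in control and 36, 41 and 49 in depleted cultures. Beside GPRC5B on chromosome 16, KNOP1, GDE1 and VPS35L fell by 0.54, 0.33 and 0.30 on the log2 scale, each by far less than GPRC5B. Beside GPRC5C on chromosome 17, TTYH2, a chloride channel family gene, had 29, 28 and 24 reads in control and 12, 12 and 8 in depleted cultures, and its log2 fold change was -1.19 (adjusted p = 0.00623, edgeR). HEBP1, FAM234B, IQCK, CCP110 and CD300LB were not called, and FAM234B was called when siControl replicate 3 was left out (adjusted p = 0.00773, edgeR, beside 0.0641 with all cultures).

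A short sequence in the 3′UTR of GPRC5B is printed because genes holding it were lower in these data. The heptamer GAACACA was picked from an earlier scan of the same fold changes, so its values are a description with no test. The 3′UTR of GPRC5B held it once, at position 720 of the 3809 bases in transcript ENST00000300571, at chr16:19859763-19859791 on GRCh38, minus strand, where capitals mark the heptamer.
GPRC5B 3′UTR site: gtctatggtgaGAACACAggccccgcccc
The coding part of the same transcript held 1 more copy, across a splice junction. The coding part of ZEB1, the siRNA target, held copies as well. The 3′UTRs of GPRC5A, 5398 bases, and GPRC5C, 401 bases, held none. Among tested genes with a 3′UTR, 1372 held it (11.2%), with a median log2 fold change of -0.23, 45.2% called lower and 12.6% called higher. The 10854 genes without it had a median of 0.0074, 21.3% called lower and 21.8% called higher. The 3′UTRs also differed in length, with a median of 2894 bases with the heptamer and 959 bases without, and the part of length was not tested. All depleted cultures were given an siRNA against ZEB1. Effects of ZEB1 loss and of the siRNA itself, for GPRC5B as for other genes, were not separated.

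The genes most like each member over the 6 cultures were found by the root mean square difference of log2 CPM, each gene centered on its own control mean, among 13196 other genes with a mean of at least 1 CPM. The profile of GPRC5B rests on 3 to 6 reads per depleted culture, and its log2 CPM had a within-group SD of 0.28, so the order of its nearest genes is a description only. GPRC5B was chosen for its fall, so the genes near it are others with large falls, the siRNA target ZEB1 included. At such counts the prior count of 2 shrinks its fall, and the fitted log2 fold changes were -3.19 for GPRC5B and -2.85 for ZEB1. The gene with the smallest distance was ZEB1 itself, at 0.166. It was followed by RPL12P14 at 0.283, CEROX1 at 0.455, TP53I11 at 0.459 and ACO1, an iron-responsive aconitase gene, at 0.466. RPL12P14 is a processed pseudogene of a ribosomal protein gene, so its reads may be shared with the parent gene. CEROX1 is a long noncoding RNA gene on chromosome 16, with 49, 45 and 52 reads against 7, 8 and 8. ACO1 was the abundant gene of these, with 1238, 1355 and 1106 reads against 218, 273 and 244. For GPRC5A the nearest were ANKS1A at 0.0218, DNAJC2 at 0.0244 and SORD at 0.0289, and for GPRC5C they were HOXB7 at 0.0127, PDXK at 0.0130 and RASL10B at 0.0155. A smaller change leaves more genes close by, so these distances are not comparable between members.

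**Figure D5:**
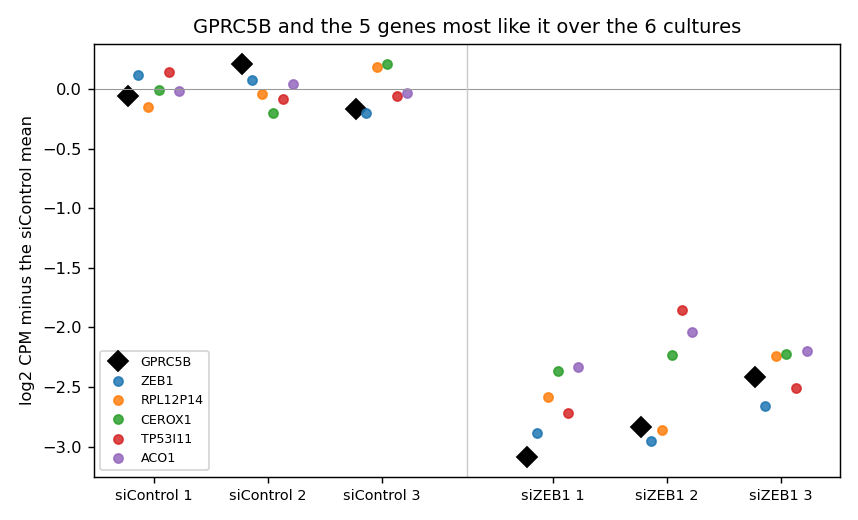
Log2 CPM of GPRC5B and of the genes most like it, relative to each gene's own siControl mean (vertical axis). The horizontal axis holds the 3 siControl and 3 siZEB1 cultures. GPRC5B and ZEB1 both drop in each siZEB1 culture, with a root mean square difference of 0.166 between them.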

How the data were processed

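RNA-seq of 6 SW480 cultures was analysed. The authors deposited unnormalized counts of reads per Ensembl gene, 1 table per culture. The submitters' processing notes name Trimmomatic, HISAT2, SAMtools, featureCounts and hg38; their versions, the annotation and the strand setting are not given in the sources used here. The 31059 of 32029 identifiers found in GENCODE 29 gave positions and lengths.

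All genes were fitted together with edgeR 4.0.16 (filterByExpr, TMM, glmQLFit and glmQLFTest, no covariates) in R 4.3.3 with limma 3.58.1. Log2 CPM used a prior count of 2. On simulated counts for the siZEB1 and siControl comparison, with 14996 genes and 200 changed, 77% of genes changed by 1 and 93% of those changed by 2 on the log2 scale were recovered, and 4.49% of the calls were false. Far fewer genes changed there than the 40.2% called in the data. Smaller changes, such as those of GPRC5A and GPRC5C, were not simulated, so these rates do not describe them. Alternatives were DESeq2 1.42.0, other scalings and filters, a fold threshold, the replicate number as a block, and each culture left out.

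The text names the 4 members, ZEB1, genes of 4 hand-made lists and of the marker lists, and the genes most like a member (5 for GPRC5B, 3 for the others tested). A gene of the retinoid list is counted but not reported here. Members and lists were chosen with earlier results of these data known. Each gene took 1 coding transcript from GENCODE 29 for 3′UTRs, and promoters came from RefSeq.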

Additional observations from a re-analysis of the deposited data

How the results depend on the processing

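The fall of GPRC5A kept its direction and call in the 12 alternatives run for it, with adjusted p (edgeR or DESeq2) from 3.78e-07 to 0.00178. Its log2 fold changes there ran from -0.41 to -0.35. The fold threshold was applied only to the number of all genes called. GPRC5A at 76.8% of control and GPRC5C at 87.9% would not pass a fold of 1.5. With each culture left out in turn, GPRC5B ranged from -3.49 to -2.99, the lowest without siZEB1 replicate 3, and GPRC5C from -0.22 to -0.14. With the replicate number as a block, GPRC5C was at -0.19 with an adjusted p of 0.131. Same-numbered deviations from the group means correlated at -0.052, -0.088 and -0.20, and differently numbered ones at -0.071 to 0.14. With 3 cultures per group, these correlations cannot settle whether the numbers pair the cultures. With the block, 4968 genes were called. The number of genes called, 6035, was 4942 to 6239 with a culture left out, and 2483 at a fold above 1.5 with an unadjusted p under 0.05. Retinoid genes called ranged from 6 to 9, partners from 5 to 7, neighbors from 6 to 8, and GABBR1 stayed the 1 class C call. The signs of STAT3, SGMS1, NFKBIA, YAP1 and CD300LB, none of them called, changed in some alternatives. The ratio of GPRC5A to GPRC5C per length in siControl was 1.27 on exonic length and 0.544 on the length of 1 transcript, an alternative added after seeing the data; the difference comes from the lengths. GPRC5B gave no value with at least 10 counts required in every culture, and depth limits its depleted level and all values of GPRC5D.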
